A study of Mus musculus with 10 samples.

Results

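The genes described here are 9 transcription factors that define the hepatocyte, the main cell type of the liver: Hnf4a and Nr5a2, Foxa1, Foxa2 and Foxa3, Cebpa and Cebpb, Onecut1, and Prox1. They were taken by name and not by a threshold on their levels, with earlier results of these data known. They were matched by gene identifier to 9 of the 39056 genes counted, and all 9 passed the filter on low counts. Messenger RNA was counted by 3' tag sequencing (Lexogen QuantSeq, 1 read near the 3' end of a transcript) in 10 C57BL/6 mice killed at 11 months of age. The 4 groups were 3 tumours from mice lacking the kinase MLK3 (KO tumours), 3 tumours from wild-type mice (WT tumours), 2 livers of knockout mice (KO livers) and 2 livers of wild-type mice (WT livers). Male pups of both genotypes in the tumour groups had received the carcinogen DEN at 5 µg per g of body weight when 2 weeks old, followed 1 week later by 0.05% PB in autoclaved drinking water as a tumour promoter, and the liver groups, matched for sex and age, drank plain autoclaved water. Both genotypes were thus exposed to both agents or to neither, and the design text describes the samples as biological replicates. The 4 groups held no untreated tumour and no separate group of treated liver. Tumour and exposure to DEN and PB therefore cannot be told apart, and the tumour effect named below covers both. The labels call the treated material tumour in one field and treated liver in another, and how the knockout was made and how tumour was parted from the liver around it were not stated in the labels. In whole tissue, fewer hepatocytes and less RNA of a factor per hepatocyte cannot be told apart.

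These factors act as a network in which each member binds regulatory DNA of liver genes and of other members. HNF4A, a nuclear receptor, is needed for the bulk of the hepatocyte programme, while the FOXA proteins open chromatin ahead of other factors and the C/EBP proteins set metabolic (C/EBP alpha) and acute phase or regenerative (C/EBP beta) expression. Onecut1 (HNF6), Prox1 and Nr5a2 (LRH-1) act in liver development and in the adult control of glucose, lipid and bile acid genes.

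The promoters of Prox1 and Foxa3 are printed because these were the members that passed the test between groups. Each line holds the 250 bases before a RefSeq start site, read 5′ to 3′ on the gene's own strand of GRCm38.p6, and Prox1 has a line for each of its starts because a 3' tag does not tell them apart. Capitals mark matches, on either strand, to the motifs named below the lines.
Prox1, outer start: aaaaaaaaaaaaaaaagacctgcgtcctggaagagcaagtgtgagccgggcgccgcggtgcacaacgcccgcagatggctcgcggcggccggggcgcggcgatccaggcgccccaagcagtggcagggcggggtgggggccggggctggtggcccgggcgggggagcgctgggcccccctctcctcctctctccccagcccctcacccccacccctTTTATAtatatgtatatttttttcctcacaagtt
Prox1, inner start: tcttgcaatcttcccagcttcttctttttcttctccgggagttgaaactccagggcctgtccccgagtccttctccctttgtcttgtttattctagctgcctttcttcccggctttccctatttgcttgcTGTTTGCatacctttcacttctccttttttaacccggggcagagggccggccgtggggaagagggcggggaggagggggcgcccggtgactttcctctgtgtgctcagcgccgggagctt
Foxa3: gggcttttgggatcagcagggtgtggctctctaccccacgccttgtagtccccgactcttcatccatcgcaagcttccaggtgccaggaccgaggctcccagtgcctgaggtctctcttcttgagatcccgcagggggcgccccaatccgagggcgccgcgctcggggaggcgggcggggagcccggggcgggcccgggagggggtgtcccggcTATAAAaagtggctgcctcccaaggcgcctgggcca
The windows lie at chr1:190170828-190171077 and chr1:190169516-190169765 on the minus strand for Prox1 and at chr7:19023540-19023789 on the minus strand for Foxa3. All 9 members had RefSeq windows, 14 in all. For the basal machinery the motif was TATAAA. Forkhead sites were searched as TGTTTAC and also as TGTTTGC, and the site of HNF6 as ATTGATT. The C/EBP site was TTGCNNAA, that of HNF4 was CAAAGTCC and that of NR5A2 was CAAGGTCA. TATAAA or its reverse complement stood in the outer Prox1 window at positions -34 to -29 from the start and in the Foxa3 window at -36 to -31, and in 12.4% of 32851 RefSeq windows of the same length. TGTTTGC, found in 4.3% of all windows, stood in the inner Prox1 window at -120 to -114. No printed window held TGTTTAC (3.17% of all windows), ATTGATT (2.61%), TTGCNNAA (9.56%), CAAAGTCC (1.2%) or CAAGGTCA (1.33%), which says only that these letters are not there. The matches printed do not overlap each other, and they describe letters and not occupied sites.

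The libraries held 12408749 to 18081487 counts, and the 9 factors together took 0.111% to 0.161% of the counts of a library. Levels are given in CPM, the count divided by the library total scaled by TMM and set to a common library size. Counts ran from 33 to 359 for Foxa1, from 53 to 1672 for Onecut1 and from 565 upward for the others, so that Foxa1 and Onecut1 were the least deeply covered. Map3k11, which encodes MLK3, had 5.38 to 14.95 CPM over the 10 libraries, but a 3' tag outside a deleted part checks nothing about the knockout. Hepatocyte genes (Alb, Apoa1, Apoa2, Apob, Ttr, Serpinc1, Fgb and Ahsg) were abundant in all groups. Their sum was 48370 to 55360 CPM in KO tumours and 91370 to 117000 CPM in WT tumours. It was 59510 to 62340 CPM in KO livers and 54150 to 55580 CPM in WT livers. These genes did not move together in WT tumours against WT livers. The log2 fold changes there were 1.21 for Alb, 1.62 for Apoa1, 1.78 for Ahsg and 0.15 for Fgb. For Apoa2, Apob, Ttr and Serpinc1 they were -0.94, -0.25, -0.29 and -0.35. Sinusoidal endothelial genes (Stab1, Stab2, Clec4g, Oit3 and Kdr) summed to 200 to 286 CPM and stellate cell and fibroblast genes (Lrat, Des, Rgs5, Col1a1, Col3a1 and Dcn) to 186.7 to 482 CPM over all libraries, with ranges that overlapped between tumours and livers. Dcn made up the largest part of the second sum, and its genes did not move together. Averaged over the genotypes, the log2 fold changes of tumours against livers were 2.24 for Col1a1 and 1.82 for Col3a1. They were -0.49 for Dcn, -0.45 for Lrat, -0.52 for Des and -0.01 for Rgs5. Cholangiocyte genes (Krt7, Krt19, Epcam, Sox9, Spp1, Cldn7 and Cldn4) summed to 52.1 to 205 CPM in KO tumours and 169 to 353 CPM in WT tumours, against 60.0 to 75.1 CPM in KO livers and 88.2 to 118 CPM in WT livers, so that WT tumours were above all livers. Most of the excess over WT livers was Spp1, with means of 117 CPM in WT tumours and 11.7 CPM in WT livers. In the same order Sox9 averaged 112 and 90.3 CPM, Krt7 0.604 and 0.189 CPM, and Krt19 0.522 and 0.694 CPM. Pancreas genes, which mark a neighbouring organ, were at 0 in all libraries for 4 of 5. KO tumour replicate 2 stood apart from the label: the tumour markers Afp and Gpc3 had 3.84 and 0.489 CPM there, against 145.6 to 534 and 46.9 to 609.7 CPM in the other 5 tumours, and the 5 fetal and tumour markers (Afp, Gpc3, H19, Igf2 and Dlk1) summed to 4.75 CPM, close to the 5.05 to 7.41 CPM of the 4 livers. Results that rest on this library are therefore also given without it.

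**Figure D1:**
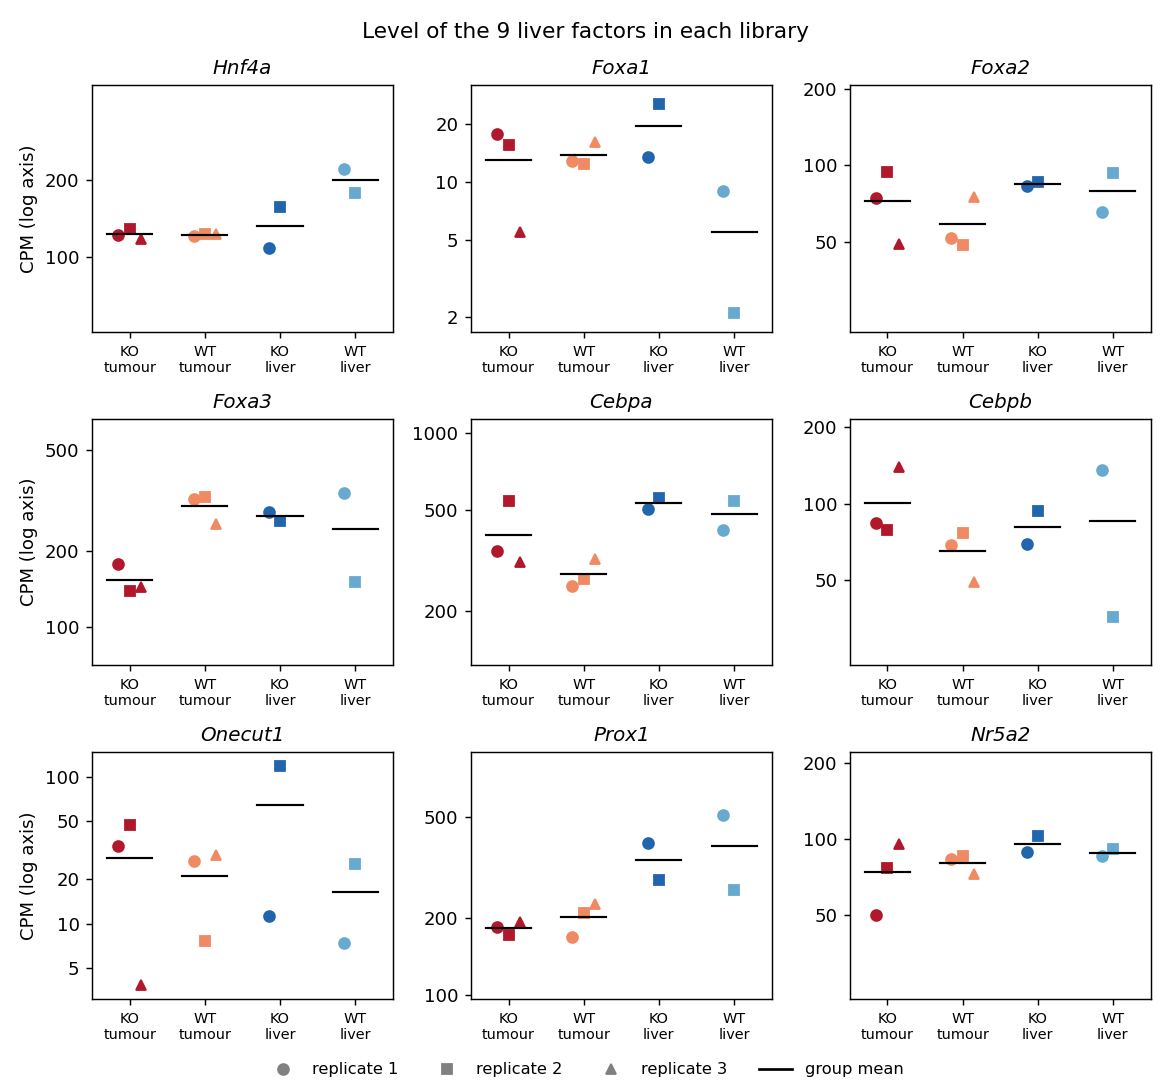
CPM (log axis) of each factor in each of the 10 libraries, with symbols for the replicate number and a bar at the group mean. All 6 tumours lie below all 4 livers for Prox1, and the 3 KO tumours lie below the 3 WT tumours for Foxa3.

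The difference among the 9 factors with the smallest adjusted p was a lower level of Prox1 in tumours, and Foxa3 was lower in KO than in WT tumours. In WT tumours against WT livers, 1 member was called lower and 0 higher (edgeR quasi-likelihood test, Benjamini-Hochberg adjusted p under 0.05 over 15811 genes), where 8.34% of all genes were called, 3.64% higher and 4.7% lower. In KO tumours against KO livers 0 members were called, with 0.0759% of all genes called, and 2 members had an unadjusted p under 0.05, as had 1520 of 15811 genes. In KO against WT livers 0 members were called, with 0.00632% of all genes, and again 2 had an unadjusted p under 0.05, as had 1151 of all genes. In KO against WT tumours 1 member was called lower and 0 higher, where 4.52% of all genes were called, 3.25% higher and 1.27% lower. The difference between the genotypes in the tumour effect (the interaction) called 0 members and 1.59% of all genes, with 2 members and 2006 of all genes at an unadjusted p under 0.05. With the tumour effect averaged over the genotypes, 1 member was called lower and 0 higher, where 9.19% of all genes were called. DESeq2 also called 0 members in KO tumours against KO livers, in KO against WT livers and in the interaction. The comparisons share libraries and are not independent of each other.

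The median log2 fold change of the 9 was -0.41 in KO tumours against KO livers, where the median of all genes was 0.06, and -0.40 in WT tumours against WT livers, where that of all genes was 0.09. Of the 9 members, 8 had a negative value in the KO comparison and 6 in the WT comparison, with no share over all genes beside these counts. Leaving out 1 library turned the sign of Hnf4a, Cebpb and Onecut1 in the KO comparison. In the WT comparison it turned that of Foxa3, Cebpb and Onecut1. The median of the 9 was 0.01 in KO against WT tumours, against -0.03 over all genes. Libraries of the groups did not overlap for 2 members in KO tumours against KO livers (26.7% of all genes), for 5 in WT tumours against WT livers (37.3%), for 2 in KO against WT tumours (23.1%) and for 1 in all tumours against all livers (4.62%). With groups this small the shares over all genes are high, and nothing about the set of 9 is read from these counts.

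**Figure D2:**
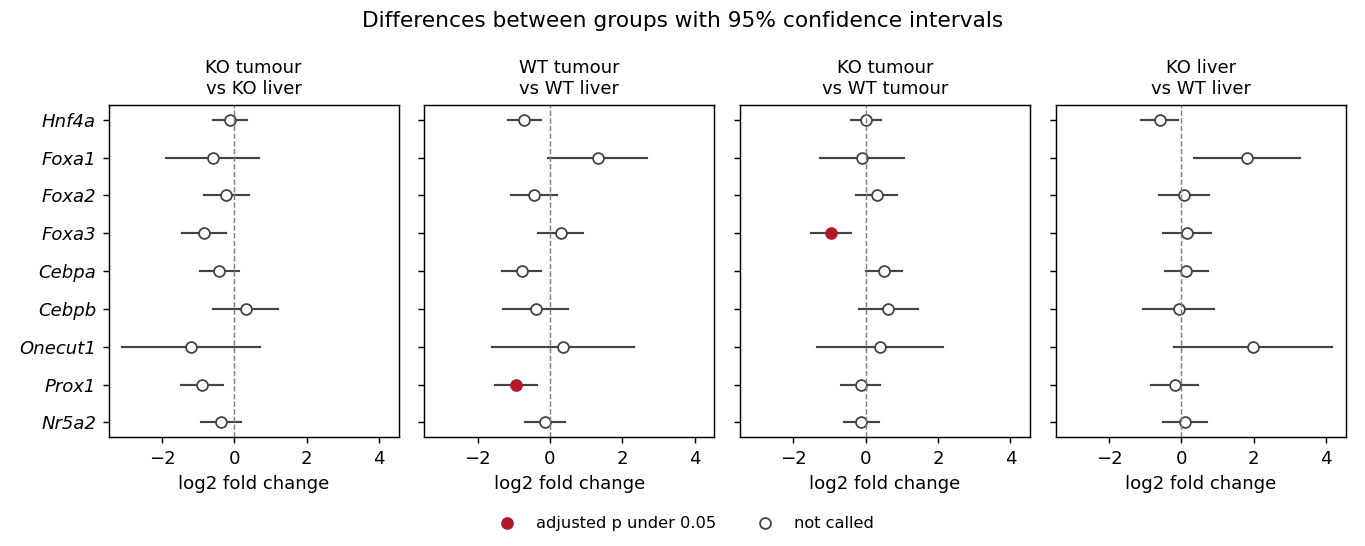
Log2 fold changes of the 9 factors in 4 comparisons (x axis) with 95% confidence intervals from the edgeR model, with called members filled in red. Prox1 in WT tumours against WT livers (-0.93) and Foxa3 in KO against WT tumours (-0.97) are the called points.

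Prox1, a homeobox factor that in the liver restrains bile acid and lipid synthesis genes and that also marks lymphatic endothelium, had 185, 173 and 193 CPM in KO tumours and 169.7, 211 and 227 CPM in WT tumours, against 395 and 283 CPM in KO livers and 513 and 259 CPM in WT livers. Every tumour was below every liver, and the genotypes overlapped within tumours and within livers. Averaged over the genotypes, Prox1 fell by 0.91 on the log2 scale (SE 0.19, adjusted p = 0.0079), to a mean of 193 CPM in tumours, against 362 CPM in livers. It fell by 0.93 in WT tumours against WT livers (SE 0.27, adjusted p = 0.047). In KO tumours against KO livers the value was -0.88 (SE 0.27), with no overlap but an adjusted p of 0.27, and the difference between the 2 effects was 0.05 (SE 0.39, adjusted p = 1), with a 95% interval from -0.78 to 0.88. The averaged value was -0.88 (adjusted p = 0.011) without KO tumour replicate 2. WT liver replicate 1 was the highest library, and without it the averaged value was -0.62 (adjusted p = 0.053) and the WT value -0.36 (adjusted p = 0.6). The other markers of lymphatic endothelium (Lyve1, Flt4, Pdpn, Mmrn1 and Ccl21a) summed to 19.2 to 35.7 CPM in KO tumours and 32.0 to 69.3 CPM in WT tumours, against 3.97 to 20.5 CPM in KO livers and 22.3 to 24.2 CPM in WT livers, with Ccl21a at 0 in all libraries. Most of this sum was Lyve1 and Flt4, while Mmrn1 averaged 0.186 CPM in KO tumours and had no counts in the other groups. Pdpn averaged 0.763 CPM in KO tumours and 2.16 CPM in KO livers, but 3.09 CPM in WT tumours and 1.55 CPM in WT livers. The part of lymphatic endothelium in the Prox1 values was not tested.

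Hnf4a had the smallest spread between replicates of the 9, and it was not called by edgeR with its default filter over all 10 libraries. It had 122, 128 and 118 CPM in KO tumours and 121, 122.5 and 123 CPM in WT tumours, against 108.5 and 156 CPM in KO livers and 221 and 178 CPM in WT livers. The 6 tumours spanned a narrow range that lay inside that of the KO livers and below both WT livers. In WT tumours against WT livers Hnf4a differed by -0.71 (SE 0.22, adjusted p = 0.058), a mean of 122 CPM against 199 CPM. In KO tumours against KO livers it differed by -0.11 (SE 0.22, adjusted p = 0.93). KO tumours and WT tumours differed by 0.01 (SE 0.20, adjusted p = 1), with a 95% interval from -0.41 to 0.42. KO livers lay below WT livers in both libraries (-0.59, SE 0.24, adjusted p = 0.66; -0.36 without KO liver replicate 1), and the interaction of 0.60 (SE 0.31) had an adjusted p of 0.46. Hnf4a was called lower in WT tumours by DESeq2 (adjusted p = 0.016), among genes at 10 CPM or more (adjusted p = 0.037) and without KO tumour replicate 2 (adjusted p = 0.049).

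Nr5a2 (LRH-1), a nuclear receptor that controls bile acid and cholesterol genes, showed no called difference. It had 50.3, 77.1 and 95.6 CPM in KO tumours and 83.2, 85.3 and 73.0 CPM in WT tumours, against 89.0 and 102.4 CPM in KO livers and 85.6 and 91.1 CPM in WT livers. KO tumour replicate 1 was the lowest library and KO liver replicate 2 the highest, and the livers of both genotypes were above the 3 WT tumours while the other pairs of groups overlapped. The log2 fold change was -0.36 (SE 0.26, adjusted p = 0.65) in KO tumours against KO livers, and -0.15 without KO tumour replicate 1, and -0.13 (SE 0.26, adjusted p = 0.84) in WT tumours against WT livers. The 95% interval of the WT difference ran from -0.69 to 0.42.

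The 3 FOXA factors, forkhead proteins that bind closed chromatin and have partly shared functions in the liver, did not move together. Foxa3 had 178, 139 and 144 CPM in KO tumours and 319.7, 326 and 256 CPM in WT tumours, against 285 and 263 CPM in KO livers and 339 and 151 CPM in WT livers. All KO tumours were below all WT tumours and both KO livers. The WT livers lay far apart, 1 above every tumour and the other among the KO tumours. Foxa3 fell by 0.97 on the log2 scale in KO tumours against WT tumours (SE 0.26, adjusted p = 0.047), means of 154 and 301 CPM. In KO tumours against KO livers the value was -0.83 (SE 0.28, adjusted p = 0.34) and in WT tumours against WT livers 0.30 (SE 0.29, adjusted p = 0.62), and the difference between these effects was -1.13 (SE 0.41, adjusted p = 0.25). The call in tumours is close to the threshold: without KO tumour replicate 2 the value was -0.90 (adjusted p = 0.16), and it was lost without any 1 of the other 5 tumours or of the 2 KO livers (adjusted p from 0.051 to 0.18). The interaction was -1.82 (adjusted p = 0.02) without WT liver replicate 1. In the same tumours the hepatocyte marker sum was also lower in KO than in WT tumours, with the ranges given above. Alb, Apoa1, Ahsg and Fgb had lower means in KO tumours, while Apoa2, Apob, Ttr and Serpinc1 had higher ones, and Alb, Apoa1 and Ahsg passed the test. The part of this sum in the Foxa3 difference was not tested.

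Foxa2, which in the liver also controls glucose and bile acid genes, had 74.4, 93.7 and 49.0 CPM in KO tumours and 51.6, 48.6 and 75.0 CPM in WT tumours, against 82.6 and 85.6 CPM in KO livers and 65.5 and 93.0 CPM in WT livers. All neighbouring groups overlapped, and the largest of its 4 pairwise values was -0.44 (SE 0.29, adjusted p = 0.41) in WT tumours against WT livers. That value was -0.17 without WT liver replicate 2 and -0.67 without WT liver replicate 1.

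Foxa1, the least abundant of the 3, had 17.65, 15.6 and 5.48 CPM in KO tumours and 12.8, 12.4 and 16.0 CPM in WT tumours, against 13.5 and 25.4 CPM in KO livers and 8.92 and 2.08 CPM in WT livers. The WT livers were below all WT tumours and both KO livers, and KO tumour replicate 3 lay between the 2 WT livers. The values were 1.32 (SE 0.64, adjusted p = 0.25) in WT tumours against WT livers and 1.82 (SE 0.69, adjusted p = 0.63) in KO against WT livers. The KO against WT liver difference had an unadjusted p of 0.019. Without WT liver replicate 1 these values were 2.72 and 3.21, and without WT liver replicate 2 they were 0.62 and 1.12.

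Neither C/EBP factor was called by edgeR with its default filter over all 10 libraries, while DESeq2 called Cebpa lower in tumours. Cebpa, which drives metabolic genes and holds hepatocytes out of the cell cycle, had 343.5, 541 and 311 CPM in KO tumours and 250.2, 266 and 319.6 CPM in WT tumours, against 502.5 and 556 CPM in KO livers and 416 and 541.5 CPM in WT livers. All tumours but KO tumour replicate 2 were below all livers. Cebpa averaged -0.60 in tumours against livers (SE 0.18, adjusted p = 0.051), a difference called by DESeq2 (adjusted p = 0.012), without a filter (adjusted p = 0.015) and among genes at 10 CPM or more (adjusted p = 0.045). Without KO tumour replicate 2, the library with tumour markers at liver level, it fell by 0.74 (adjusted p = 0.005). In WT tumours against WT livers the value was -0.78 (SE 0.25, adjusted p = 0.074), called by DESeq2 (adjusted p = 0.024), without a filter (adjusted p = 0.029) and without KO tumour replicate 2 (adjusted p = 0.023), and in KO against WT tumours it was 0.52 (SE 0.23, adjusted p = 0.3), but 0.23 (adjusted p = 0.78) without KO tumour replicate 2. The proliferation genes Mki67, Top2a, Ccnb1 and Cdk1 summed to 3.77 to 33.3 CPM in KO tumours and 45.9 to 81.3 CPM in WT tumours. The sum was 2.92 to 8.57 CPM in KO livers and 1.135 to 4.71 CPM in WT livers. Top2a and Cdk1 were called higher in WT tumours against WT livers. In KO tumours against KO livers none of these genes was called, and Ccnb1 averaged 1.39 CPM in both groups. A link between these genes and Cebpa was not tested.

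Cebpb had 83.55, 78.5 and 140 CPM in KO tumours and 69.0, 76.6 and 49.3 CPM in WT tumours, against 69.2 and 93.2 CPM in KO livers and 135.5 and 35.6 CPM in WT livers. All KO tumours were above all WT tumours, but the 2 WT livers held the lowest and nearly the highest level. The value in KO against WT tumours was 0.63 (SE 0.38, adjusted p = 0.49), and that in WT tumours against WT livers was -0.40 (SE 0.42, adjusted p = 0.65). Without KO tumour replicate 3 the first was 0.32, and the second was 0.87 without WT liver replicate 1 and -1.06 without WT liver replicate 2. Tmem189 overlaps exons of Cebpb on the opposite strand and had 43 to 366 counts in the same libraries, while Cebpb had at least 565. The ratio of Cebpb to Cebpa, which needs no scaling between libraries, was 0.243, 0.145 and 0.45 in KO tumours and 0.276, 0.288 and 0.154 in WT tumours, against 0.138 and 0.168 in KO livers and 0.326 and 0.0658 in WT livers. On the log2 scale it averaged -2.05 ± 0.61 in 6 tumours and -2.75 ± 0.95 in 4 livers (SD), and the difference of 0.69 was within the spread (exact two-sided permutation test, p = 0.224, 0.448 adjusted over 2 tests). KO tumours averaged -1.99 ± 0.82 and WT tumours -2.12 ± 0.50 (SD, n = 3 each; exact permutation p = 1, where 0.1 is the smallest p that the design allows).

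**Figure D3:**
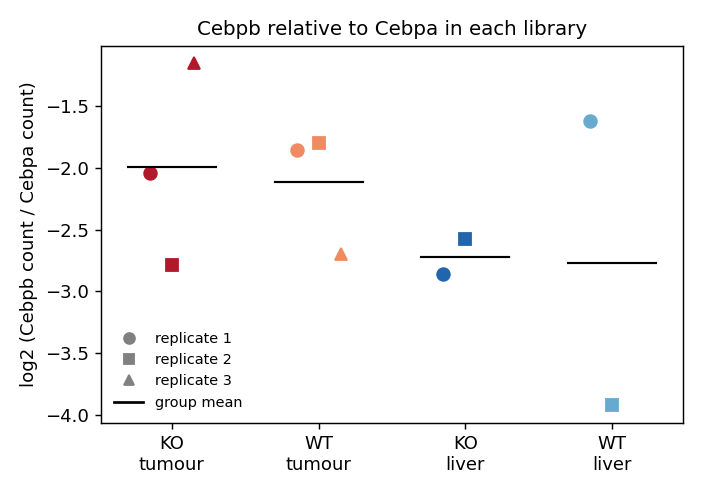
Log2 ratio of the Cebpb count to the Cebpa count in each of the 10 libraries, by group, with a bar at the group mean. The WT livers lie furthest apart, at -1.62 and -3.93, and hold all tumours except KO tumour replicate 3 (-1.15) between them.

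Onecut1 (HNF6), a cut-homeodomain factor of liver and bile duct development, varied most of the 9. It had 33.7, 46.8 and 3.82 CPM in KO tumours and 26.7, 7.57 and 29.3 CPM in WT tumours, against 11.3 and 118.4 CPM in KO livers and 7.35 and 25.5 CPM in WT livers. High and low libraries occurred in every group and all groups overlapped. The value was 1.98 (SE 1.03, adjusted p = 0.71) in KO against WT livers and -1.205 (SE 0.89, adjusted p = 0.67) in KO tumours against KO livers, and without KO liver replicate 2, the highest library, these became -0.54 and 1.31. With all 10 libraries but no filter on low counts, edgeR called both differences (adjusted p = 0.00036 and 0.031). Gm20649, a noncoding gene that overlaps Onecut1 on the same strand, had 0 counts in all libraries.

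Replicates agreed most closely for Hnf4a, whose SD of log2 CPM within groups was 0.18, lower than in all but 8.3% of 7636 genes with a mean of at least 10 CPM, where the median was 0.36. Nr5a2 (0.29), Cebpa (0.29), Prox1 (0.34), Foxa2 (0.37) and Foxa3 (0.37) lay near that median. Cebpb (0.66), Foxa1 (0.84) and Onecut1 (1.69) lay above it, Onecut1 above 99.1% of these genes. A difference of a given size is therefore far easier to detect for Hnf4a than for Onecut1. In the order of the group means, neighbouring groups had separate libraries at 1 step each for Hnf4a (WT livers above KO livers), Prox1 (KO livers above WT tumours) and Nr5a2 (WT livers above WT tumours), and overlapped at all steps for the other 6.

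**Figure D4:**
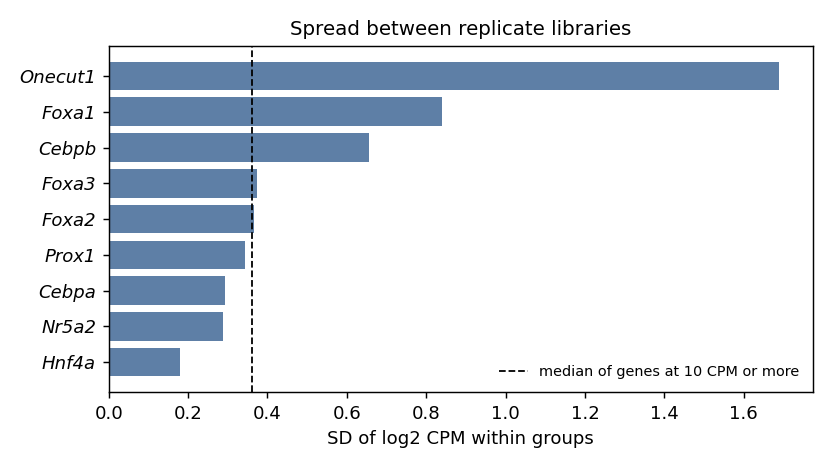
SD of log2 CPM within groups (x axis, 6 residual degrees of freedom) for each factor, with a dashed line at the median of 7636 genes at 10 CPM or more. Hnf4a is lowest at 0.18 and Onecut1 highest at 1.69.

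Known targets of these factors were counted list by list, and the lists differ in length from the set of 9. In WT tumours against WT livers 3.64% of all genes were called higher and 4.7% lower. In KO against WT tumours these shares were 3.25% and 1.27%. The medians of all genes were 0.09 and -0.03, and these shares and medians stand beside every list below. The lists hold textbook targets and overlap, with 10 of the 22 HNF4A targets, 21 of them tested, also on another list of factors or targets. Of 21 HNF4A targets tested, 11 were lower and 3 higher in WT tumours against WT livers, with a median log2 fold change of -1.01 against 0.09 over all genes. In KO against WT tumours 9 were higher and 2 lower, with a median of 0.98 against -0.03. In KO tumours against KO livers 1 was called higher (Apoa4, 3.86, adjusted p = 0.045) and 0 lower, with a median of -0.22 against 0.06. Over all alternatives the number lower in WT tumours stayed between 8 and 12, and the number higher in KO against WT tumours between 8 and 11, while the number lower there was 1 without KO tumour replicate 3 or any 1 of the WT tumours. Hnf4a itself differed by 0.01 between the tumour groups.

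A group of these targets serves bile acid or organic anion uptake and glucose release. Slco1b2, an organic anion transporter, had 1137 to 2401 CPM in KO tumours and 91.2 to 173 CPM in WT tumours, against 1520 to 1759 CPM in KO livers and 1461 to 1920 CPM in WT livers. Slc10a1, the bile acid uptake transporter NTCP, averaged 169.8 ± 65.1 CPM in KO tumours and 18.4 ± 7.4 CPM in WT tumours (SD, n = 3 each), and 165 CPM in KO livers and 161 CPM in WT livers. G6pc, the glucose-6-phosphatase that releases glucose, had 109.8 to 148 CPM in KO tumours and 12.01 to 20.7 CPM in WT tumours, against 125 to 138 CPM in KO livers and 182 to 317.5 CPM in WT livers. WT tumours were below every other library for all 3 genes. Slco1a1, a further transporter, averaged 193 ± 92.2 CPM in KO tumours and 5.19 ± 4.22 CPM in WT tumours, against 331 and 271 CPM in KO and WT livers. In KO against WT tumours the log2 fold changes were 3.79 (SE 0.32) for Slco1b2, 3.21 (SE 0.33) for Slc10a1 and 3.03 (SE 0.28) for G6pc, and 2.54 (SE 0.25) for Cyp27a1, a bile acid synthesis enzyme, with adjusted p values of 4.3e-06, 2.8e-05, 1e-05 and 1.9e-05. Without KO tumour replicate 2 these were 3.45, 2.85, 3.09 and 2.23, all called.

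**Figure D5:**
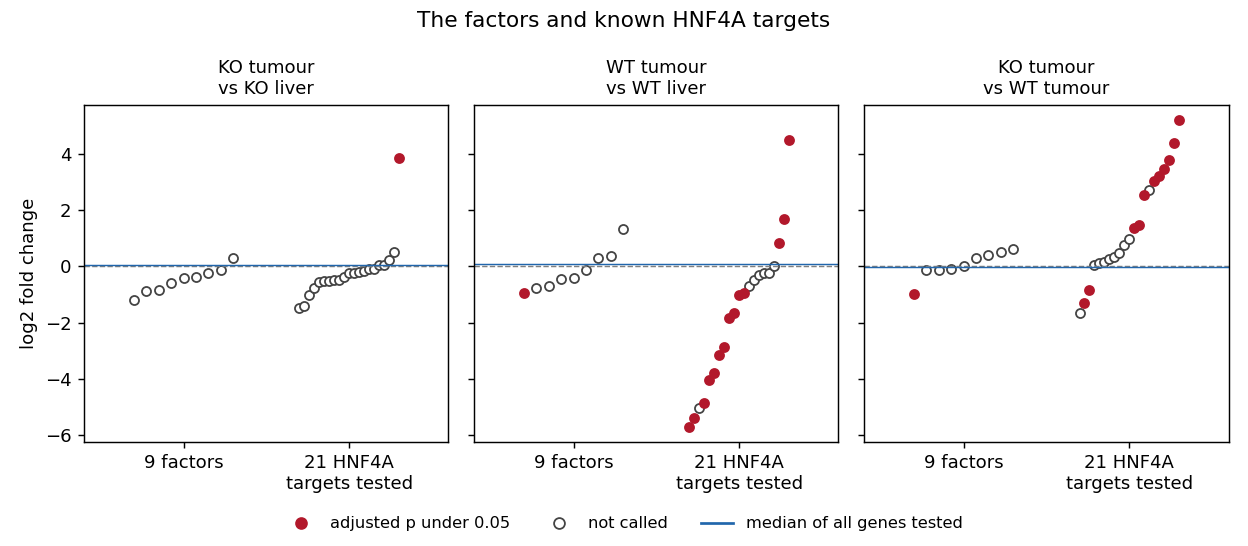
Log2 fold changes of the 9 factors and of 21 tested HNF4A targets in 3 comparisons, each point a gene and red points called, with a blue line at the median of all genes. The factors lie within -1.205 to 1.32 in all 3 panels, while the targets run from -5.68 to 5.20.

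C/EBP alpha targets followed no single direction. Of 9, 3 were lower and 2 higher in WT tumours against WT livers (median -0.70), and 1 was higher and 2 lower in KO against WT tumours (median 0.27). Cps1, the entry enzyme of the urea cycle, fell by 1.33 (SE 0.23, adjusted p = 0.0019) in WT tumours, and Alb and the glycogen synthase Gys2 rose by 1.21 (SE 0.23, adjusted p = 0.0031) and 1.52 (SE 0.33, adjusted p = 0.0086). Of 11 FOXA targets, 5 were higher and 2 lower in WT tumours against WT livers (median 0.00), and 1 was higher and 2 lower in KO against WT tumours (median 0.11). Igfbp1, an insulin-repressed binding protein, had 10.8 to 661.7 CPM in KO tumours and 2163 to 4439 CPM in WT tumours, against 30.0 to 39.1 CPM in KO livers and 39.2 to 111 CPM in WT livers. Abcb11, the bile salt export pump, fell by 1.98 in WT tumours against WT livers (SE 0.28, adjusted p = 0.00038) and was higher by 1.71 in KO against WT tumours (SE 0.26, adjusted p = 0.001).

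Of 5 HNF6 targets, 2 (Cyp7a1 and G6pc) were lower in WT tumours against WT livers (median -0.44) and the same 2 were higher in KO against WT tumours (median 0.48), and Foxa2 on this list is itself one of the 9. Of 8 LRH-1 targets, 3 were lower and 3 higher in WT tumours (median -0.35), and 4 were higher and 2 lower in KO against WT tumours (median 0.69), a count of higher genes that was 1 without KO tumour replicate 2 or WT tumour replicate 1 and 2 without KO tumour replicate 3. Cyp8b1, the enzyme that sets the cholic acid share of bile acids, had 18.5 to 177.5 CPM in KO tumours and 1.38 to 11.8 CPM in WT tumours, against 202 to 255 CPM in KO livers and 181.5 to 440.3 CPM in WT livers. Of 8 acute phase targets of C/EBP beta, 4 were lower and 1 higher in WT tumours (median -1.72), and 5 were higher and 0 lower in KO against WT tumours (median 1.49), of which 2 or 3 held without KO tumour replicate 1 or without any 1 of the WT tumours. Orm1, an acute phase plasma protein, averaged 1183 ± 489 CPM in KO tumours and 298 ± 93.8 CPM in WT tumours (SD, n = 3 each), a log2 fold change of 1.99 (SE 0.32, adjusted p = 0.0015). Macrophage and neutrophil genes, 8 in number, were Csf1r, Adgre1, Cd68, Clec4f, Lyz2, Itgam, S100a8 and S100a9. They summed to 142 to 445 CPM in KO tumours and 280.3 to 509 CPM in WT tumours. The sum was 146 to 244 CPM in KO livers and 162 to 166 CPM in WT livers. These genes did not move together. In WT tumours all but Clec4f had higher means than in WT livers, with log2 fold changes of 1.89 for Lyz2 and 2.58 for S100a8. Clec4f averaged 17.7 CPM in WT tumours and 35.5 CPM in WT livers. In KO against WT tumours Clec4f (1.21) and S100a8 (0.01) had higher means and the others lower ones, with -1.26 for Adgre1. The part of these genes in the acute phase values was not tested.

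Other liver-enriched factors included larger called differences. Of 34, 7 were lower and 0 higher in WT tumours against WT livers (median -0.47), 0 were called in KO tumours against KO livers (median -0.17), where DESeq2 called 0 higher and 1 lower, and 4 were higher and 1 lower in KO against WT tumours (median 0.27). Tbx3, a T-box repressor, had 18.8 to 49.2 CPM in KO tumours and 3.64 to 7.89 CPM in WT tumours, against 27.3 to 40.9 CPM in KO livers and 40.0 to 81.0 CPM in WT livers, and it fell by 3.55 in WT tumours against WT livers (SE 0.48, adjusted p = 0.00023). Onecut2, the paralogue of Onecut1, had 170.6 to 294 CPM in KO tumours and 12.4 to 102 CPM in WT tumours, against 332 to 373 CPM in KO livers and 308 to 343 CPM in WT livers. Nr1h4, the bile acid receptor FXR, fell by 1.25 (SE 0.26, adjusted p = 0.0059) and Mlxipl, the glucose-sensing factor ChREBP, by 1.17 (SE 0.28, adjusted p = 0.015) in WT tumours against WT livers. Nr0b2, the repressor SHP, was higher by 2.16 in KO against WT tumours (SE 0.50, adjusted p = 0.019; 1.80 and an adjusted p of 0.1 without KO tumour replicate 2), and Atf5, a stress response factor, was lower by -0.93 (SE 0.20, adjusted p = 0.012). The count of 7 was 4 without either WT liver and 3 without WT tumour replicate 1, and the count of 4 was 1 without KO tumour replicate 2 or 3 or WT tumour replicate 1.

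The genes whose pattern was most like that of a factor, by the root mean square difference of centred log2 CPM over the 10 libraries among 7632 genes, were mostly not liver factors. Nearest to Hnf4a were mt-Co1 and Nfs1, a pair from mitochondrial respiration and iron-sulphur assembly, at 0.11 each against a median of 0.51 over all genes. Nearest to Cebpa were the mitochondrial enzymes Got2 (0.10) and Hadh (0.12), nearest to Foxa3 were Shtn1 (0.22) and the fibrinogen gene Fgb (0.22), and nearest to Prox1 were the sialyltransferase St3gal1 and Ppme1 (0.23 each). Foxa2 was nearest to Ccni and Casp9 (0.14 each), Nr5a2 to Golim4 and Agpat3 (0.13 each), and Cebpb to Maml2 (0.26) and Vps11 (0.29). Foxa1 was nearest to Dlgap4 (0.49) and the predicted gene Gm13436 (0.50), and Onecut1 to Pank2 and Cwc25 (0.97 each), distances at which the patterns are only loosely alike.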

How the data were processed

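The authors deposited a table of raw read counts per gene, not normalized, for the 10 libraries, made from 50 ng of RNA with a strand-specific 3' kit per the labels' protocols. BWA, featureCounts and the mm10 build are named in the submitters' processing notes; their versions, the annotation, the strand setting and the rule for reads shared by genes were not stated there, so overlapping genes may share reads. A table of names paired 38872 of 39056 identifiers with symbols, positions from GENCODE M21 on GRCm38 (mm10) and promoter sequences from RefSeq on GRCm38.p6. Antisense genes of Hnf4a, Cebpa and Prox1 were not analysed here.

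Counts were fitted in R 4.3.3 with edgeR 4.0.16: filterByExpr (15811 genes), TMM, 1 quasi-likelihood model with a term for each of the 4 groups, 6 contrasts and Benjamini-Hochberg adjustment over all genes tested, called at 0.05. Standard errors were the log2 fold change divided by the square root of F. The fit had 6 residual and 8.78 prior degrees of freedom. The ratio of Cebpb to Cebpa was tested by exact permutation. DESeq2 1.42.0, other scalings, filters, the compared groups alone, a replicate block and leaving out each library were tried as alternatives, and the edgeR model was tested on simulated counts. Replicate libraries of a group differed by a chi-square of 39.8 to 94.9 per degree of freedom over genes, so none was counted as a duplicate. A count of 3, the limit for a gene at 0, was 0.156 to 0.231 CPM, and counts are reads, not molecules, so that such limits cover counting error only.

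The members, lists and tests were chosen with earlier results of these data known. Named genes are all members, up to 4 called genes with the smallest p in each list and comparison (2 where none was called), and 2 nearest patterns per member among genes at 10 CPM or more on average, on log2 CPM with a prior count of 2. Results that need certain genes are not reported here.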

Additional observations from a re-analysis of the deposited data

Results flagged for a closer look

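No member passed the test for a difference between the genotypes in its tumour effect. Of the genes on the factor, target and marker lists, 11 did, by the edgeR interaction (the KO tumour against KO liver value minus the WT one, adjusted p under 0.05). Over all genes 251 of 15811 (1.59%) were called. The lists were chosen with earlier results of these data known, so nothing about the lists is read from this count. On the log2 scale it was positive for the HNF4A targets G6pc (3.95), Slc10a1 (3.17), Slco1b2 (3.84), Slco1a1 (4.91) and Cyp27a1 (2.37). It was 3.37 for the factor Tbx3, and 7.34 for Saa1 and 8.65 for Saa2, which share near-identical sequence and are uncertain one by one. Both spread widely within groups. Saa1 had 65.7 to 2702 CPM in KO tumours and 34.6 to 95.4 CPM in WT tumours, against 65.0 to 197 CPM in KO livers and 457 to 1876 CPM in WT livers. In the same order Saa2 had 24.3 to 1237, 5.24 to 38.0, 39.0 to 70.5 and 215 to 1513 CPM. The interaction was negative for Alb (-1.43) and Apoa1 (-1.79), which are on the list of FOXA targets, and for Ahsg (-1.75), a hepatocyte marker. All 11 were still called without KO tumour replicate 2. G6pc, Slc10a1, Slco1b2, Slco1a1 and Cyp27a1 were called under all 17 alternatives, while Alb was called under 8 of them and Saa1 under 12.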

How the results depend on the processing

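The called values kept their direction under all alternatives, but calls were lost. Prox1 lower in WT tumours was called under 7 of 18 alternatives, Foxa3 lower in KO against WT tumours under 10 of 18, and Prox1 lower over both genotypes under 16 of 17. The number of members lower in WT tumours against WT livers was 3 with DESeq2, 2 without a filter or with a mean of at least 10 CPM, 0 with RLE or upper quartile factors, library totals only or the compared groups alone, and 0 to 3 when 1 library was left out. Averaged over the genotypes, 2 were lower with DESeq2, without a filter or at 10 CPM, and 0 to 2 with 1 library left out. The number of all genes called also moved with the setting. In WT tumours against WT livers DESeq2 called 1042 of all genes lower, where edgeR called 743. Averaged over the genotypes these numbers were 898 and 684. Over all alternatives they ran from 496 to 1042 and from 401 to 898. More members called under a setting are therefore not read as added support for them. Without a filter, 2 were lower in KO tumours against KO livers (Onecut1 and Prox1) and 1 was higher in KO against WT livers (Onecut1). Leaving out 1 library gave 0 to 1 lower in KO against WT tumours and 0 to 1 in the interaction. It also turned the sign of uncalled values. In KO tumours against KO livers the ranges were -0.34 to 0.18 for Hnf4a, -0.002256 to 0.54 for Cebpb and -2.07 to 1.31 for Onecut1. In WT tumours against WT livers they were -0.17 to 0.99 for Foxa3, -1.06 to 0.87 for Cebpb and -0.27 to 1.53 for Onecut1. In KO against WT livers they were -0.15 to 0.36 for Foxa2, -0.31 to 0.86 for Foxa3, -0.037 to 0.34 for Cebpa, -0.74 to 1.18 for Cebpb, -0.60 to 0.39 for Prox1 and -0.54 to 3.13 for Onecut1. In KO against WT tumours they were -0.028 to 0.038 for Hnf4a, -0.38 to 0.27 for Foxa1, -0.18 to 0.92 for Onecut1 and -0.34 to 0.10 for Nr5a2. In the interaction they were -0.046 to 0.47 for Foxa2, -0.53 to 0.46 for Prox1, -0.55 to 1.38 for Cebpb and -2.73 to 0.94 for Onecut1. Averaged over the genotypes they were -0.50 to 0.082 for Foxa3, -0.37 to 0.59 for Cebpb and -0.85 to 0.84 for Onecut1. With library totals only, Nr5a2 was 0.13 in WT tumours against WT livers, Hnf4a 0.034 in KO tumours against KO livers and -0.080 in KO against WT tumours, Prox1 -0.090 in the interaction and Cebpb 0.17 averaged. Hnf4a in KO against WT tumours was -0.01171 with DESeq2, -0.01174 with RLE factors and -0.003336 at 10 CPM, where Cebpb averaged 0.009111. Leaving out 1 library moved the ratio of Cebpb to Cebpa between -0.29 and 0.52 in KO against WT tumours. Among all genes, DESeq2 called 343 higher and 34 lower in KO tumours against KO livers, where edgeR called 12 and 0. With library totals only, the median of all genes moved to 0.36 in WT tumours against WT livers, and Prox1 there was -0.66. Same-numbered samples did not deviate together. In a group of 2 libraries the deviations mirror each other, so this check cannot exclude that the numbers pair the mice. With a replicate block 0 members were lower in WT tumours against WT livers (Prox1 -0.93, adjusted p = 0.073). Under that block Cebpb was 0.041 in KO against WT livers, and Onecut1 was -0.23 in KO against WT tumours and 0.33 averaged. The cause of these changes was not tested. With 2 livers a genotype, 1 library decides many values.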
